A study of Homo sapiens with 12 samples.

Results

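The IFIT cluster on human chromosome 10 holds 5 protein-coding genes, which lie on the plus strand in the order IFIT2, IFIT3, IFIT1B, IFIT1 and IFIT5. Chromatin accessibility across the cluster was measured by ATAC-seq, in which the Tn5 transposase cuts open chromatin and tags the fragments for sequencing. The cells were DU-145, a castration-resistant prostate cancer line, and BT-549, a triple-negative breast cancer line, both carrying a tet-inducible MUC1 short hairpin RNA (tet-MUC1shRNA). Each line was studied in 3 control libraries (Doxminus, called vehicle here; the labels give 0.1% DMSO in one field and no treatment in another) and in 3 libraries after a week of doxycycline (Doxplus, called DOX here), which makes 12 libraries in 4 groups. The study's methods call the replicates biologically independent. All 4 groups carry the MUC1 hairpin. Control-hairpin cells are not analysed here, so the effect of the hairpin and that of DOX itself cannot be told apart.

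The members were chosen by position. The gene bodies of the 5 genes in GENCODE v44, with 20 kb on each side, merge into 1 window of 177912 bp, chr10:89263694-89441605 on GRCh38. The deposited tables hold the coverage of 100-bp bins in regions where peaks were found, and a region here is a run of adjacent bins. Of the 79177 regions of the DU-145 table, 23 lie in the window, with 174 of 709366 bins. Of the 46298 regions of the BT-549 table, 23 lie in the window, with 364 of 472994 bins. The tables share 13 runs of bins in the window, of 32671 in all. Regions are named by the distance of their middle from the nearest start of a canonical member transcript, for example IFIT2 -5.8 kb. A long transcript of LIPA, the lysosomal acid lipase gene, runs through most of the window on the minus strand and has a start beside that of IFIT5, so the names give a position and not a target gene. The start of IFIT1B lies in no region of either table.

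The IFIT genes encode proteins with tetratricopeptide repeats and are among the genes most strongly induced by type I interferon. IFIT1 binds RNA whose cap lacks host methylation, IFIT2 and IFIT3 form complexes with IFIT1 and with each other, and IFIT5 binds RNA without a cap. Interferon bound to IFNAR1 and IFNAR2 activates the kinases JAK1 and TYK2, and a complex that holds STAT2 and IRF9 then binds the interferon-stimulated response element (ISRE) of induced genes.

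The ISRE core was searched as GAAANNGAAA on both strands in the canonical promoters, from 250 bases before to 50 bases after the start. A match was found in 3.29% of 20007 promoters of protein-coding genes. At least 2 matches were found in 54 promoters (0.27%), among them those of IFIT2, IFIT3 and IFIT1 with 2 each, and at least 3 in 6 promoters (0.03%), among them that of IFIT5. The IFIT1B promoter held none. The sites below are shown because the promoters they lie in are the ones compared in the rest of the text. They are 30 bases of the plus strand of GRCh38, the strand of the genes, with the ISRE core in capitals.
IFIT2, positions -108 to -99 from the start, chr10:89301928-89301957: gtcctgccaaTTTCACTTTCtagtttcact
IFIT2, positions -95 to -86 from the start, chr10:89301941-89301970: cactttctagTTTCACTTTCccttttgtaa
IFIT3, positions -122 to -113 from the start, chr10:89327865-89327894: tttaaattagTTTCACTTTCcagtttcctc
IFIT1, positions -116 to -107 from the start, chr10:89392497-89392526: ctagctttagTTTCACTTTCccctttcggt
IFIT5, positions -45 to -36 from the start, chr10:89414513-89414542: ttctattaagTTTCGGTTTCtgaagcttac
The core shown has the same letters in IFIT2, IFIT3 and IFIT1 and differs in IFIT5. This holds for the sites shown and does not set IFIT5 apart. The IFIT1 match at positions -103 to -94, not shown, has the letters of the IFIT5 core shown. The IFIT3 match at positions -156 to -147, also not shown, differs from both. A match is a description of the sequence and was not tested for binding.

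The coverage summed over the bins of a table ranged from 12370094 to 25231999.7 in the DU-145 libraries, from 9142900 to 13606129 in the BT-549 vehicle libraries and from 2502509.89 to 3267024 in the BT-549 DOX libraries. The BT-549 comparison therefore sets shallow DOX libraries against deeper vehicle libraries, and the part of depth in its results was not tested. Each value below is the mean bin coverage of a region per 1000000 of its library's sum, so regions of different length can be compared. The MUC1 promoter region ranged from 2.14 to 2.69 over the 6 DU-145 libraries and from 3.82 to 4.67 over the 6 BT-549 libraries, and did not pass the test in either line (adjusted p = 0.0534 and 0.907). In DU-145 it was called lower with TMM or RLE factors (log2 fold change -0.365 and -0.417) and not with loess or with the GC trend removed. The hairpin acts on the transcript, so this region is no measure of the knockdown. Of 6 epithelial markers, the DU-145 table had a promoter region for 6 and the BT-549 table for 2, with none at CDH1, EPCAM, KRT8 or KRT18. Of 6 mesenchymal markers, BT-549 had 6 and DU-145 had 4. Some of these promoters moved with DOX in BT-549: ZEB1 (log2 fold change 1.01, adjusted p = 1.08e-06), VIM (0.62, adjusted p = 9.39e-06) and the epithelial GRHL1 (0.51, adjusted p = 0.0136) rose, and FN1 fell (-0.75, adjusted p = 0.00207). The other 4 with a region did not pass. In DU-145, 3 of the 6 epithelial promoters rose and 3 fell (KRT8 and KRT18 share a region), and 2 of the 4 mesenchymal promoters fell. The part of these shifts in the IFIT results was not tested. A lower value in bulk cells can come from fewer open copies or from fewer cells with the site open, which cannot be told apart.

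In BT-549 cells, accessibility across the IFIT cluster fell with DOX. Of the 23 regions, 17 fell and 0 rose (edgeR quasi-likelihood test, adjusted p below 0.05 over all regions of the table). Of the 17, 11 had peaks in vehicle libraries alone and so entered the table through the group where they are high. Over the whole table, 18.0% of regions fell and 12.2% rose. The median log2 fold change was -1.30 over the IFIT regions and -0.10 over all 46298 regions. All 23 values were below 0, and in 20 of the 23 every DOX library lay below every vehicle library, as in 27.0% of all regions. In no region did all DOX libraries lie above, as in 16.2% of all. The sum over the window was 624, 633 and 674 per 1000000 in the vehicle libraries and 160, 148 and 178 per 1000000 in the DOX libraries. The highest DOX library thus lay below the lowest vehicle library (two-sided exact permutation p = 0.1, which is as low as 3 against 3 libraries can give). The sum runs over bins of the table, and 17 of the 23 regions had peaks in vehicle libraries alone. That entry favours a lower DOX sum, and the test of the sum is not read as support.

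**Figure D1:**
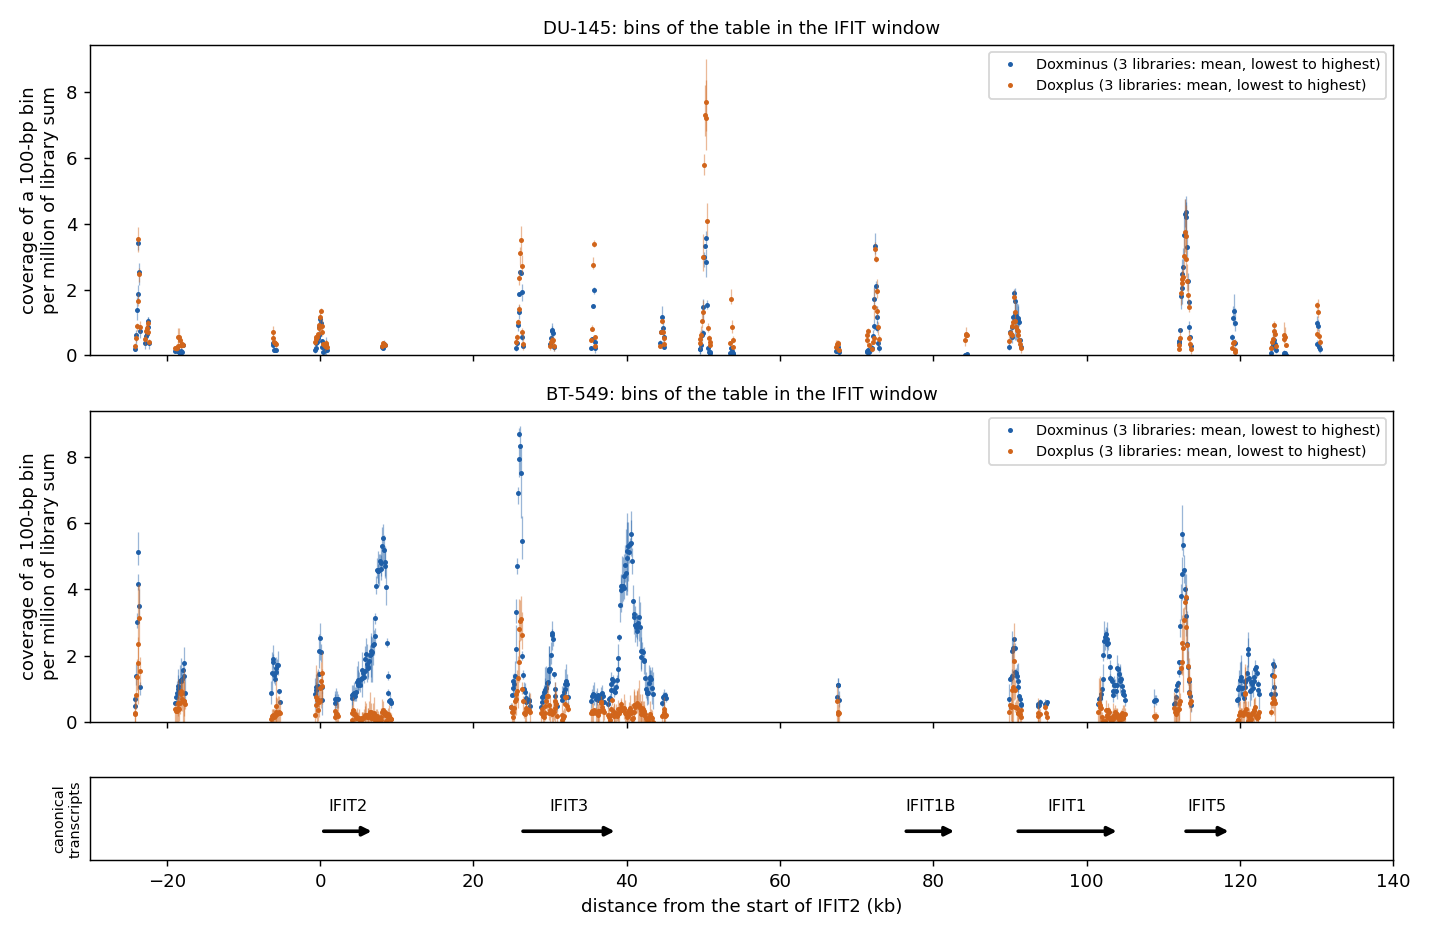
Coverage of each 100-bp bin of the tables in the IFIT window, per 1000000 of library sum, against the distance from the start of IFIT2 in kb, for DU-145 (top) and BT-549 (middle). Points are means of 3 libraries, lines run from the lowest to the highest library, blue is vehicle (Doxminus), orange is DOX (Doxplus), and arrows mark the canonical transcripts. In BT-549 the highest vehicle bin lies at the IFIT3 start (mean 8.71), and broad vehicle signal over the ends of IFIT2, IFIT3 and IFIT1 is near the axis with DOX; in DU-145 the highest bin is a DOX bin 50.3 kb from the IFIT2 start (mean 7.72).

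The 4 promoters that lie in a region fell in BT-549. At the IFIT3 promoter (chr10:89326901-89329000) the vehicle libraries had 3.20, 3.19 and 3.29 and the DOX libraries 0.868, 1.24 and 1.07. The groups lay far apart, and the difference was a log2 fold change of -1.61 (adjusted p = 4.97e-09, SE 0.15). The IFIT1 promoter (chr10:89391901-89393600) had 1.26, 1.34 and 1.46 against 0.334, 0.526 and 0.781. Here too each DOX library was below each vehicle library, with a log2 fold change of -1.27 (adjusted p = 2.37e-04, SE 0.25). The IFIT2 promoter (chr10:89301301-89302400) had 1.45, 1.16 and 1.44 against 0.883, 0.724 and 0.723. These groups were closer but did not overlap, and the log2 fold change was -0.80 (adjusted p = 0.0172, SE 0.25). The IFIT5 promoter (chr10:89413401-89415700), which also holds a LIPA start, had 2.26, 2.58 and 2.13 against 1.31, 1.36 and 1.53. It had the smallest change of the 4, with a log2 fold change of -0.73 (adjusted p = 3.99e-04, SE 0.15). Among vehicle libraries, the promoters ranked IFIT3, IFIT5 and then IFIT1 and IFIT2, the last 2 of which overlapped.

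The 3 largest falls were over and past the ends of IFIT2, IFIT3 and IFIT1. These regions are long: the region over the IFIT3 end (chr10:89339601-89345500) spans 5900 bp and runs 4.53 kb past the canonical transcript end, and a length of 5900 bp or more was reached by 0.175% of the regions in the table. It had 2.38, 2.67 and 2.66 in the vehicle libraries and 0.278, 0.201 and 0.371 in the DOX libraries. The log2 fold change was -3.15 (adjusted p = 9.37e-15, SE 0.15), an 8.85-fold lower coverage with DOX. The region over the IFIT2 end (chr10:89306101-89311400, 5300 bp, 2.13 kb past the end) had 2.41, 2.13 and 2.43 against 0.186, 0.0740 and 0.211. It had the largest change of the 23, with a log2 fold change of -3.84 (adjusted p = 9.51e-15, SE 0.18), or 14.3-fold lower. In vehicle cells its mean of 2.33 exceeded the 1.35 of the IFIT2 promoter, and with DOX its mean of 0.157 was below the 0.777 of that promoter. The region over the IFIT1 end (chr10:89403501-89407100, 3600 bp) had 1.21, 1.35 and 1.51 against 0.229, 0.190 and 0.160. Its log2 fold change was -2.83 (adjusted p = 6.39e-11, SE 0.21). Past IFIT5, the region at IFIT5 +8.5 kb (chr10:89421601-89424600, 3000 bp) had 1.23, 1.23 and 1.13 against 0.292, 0.213 and 0.238. Its log2 fold change was -2.27 (adjusted p = 5.98e-09, SE 0.22). All of these 4 regions kept groups that did not overlap. They had peaks in the 3 vehicle libraries and in no DOX library, and so entered the table through the group where they are high. Of all regions of the BT-549 table with peaks in vehicle libraries alone, 29.4% fell and 0.0557% rose. That entry favours a fall, and the tests of these 4 regions are not read as support. The regions over the ends of IFIT2, IFIT3 and IFIT1 held 1 ISRE match each. Of 100-bp bins, 3.02% of those in the window and 1.38% of all in the BT-549 table held one.

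Of the other regions that fell, the intronic region at IFIT2 -5.8 kb (chr10:89295601-89296800), upstream of the canonical start, had 1.39, 1.28 and 1.54 with vehicle and 0.592, 0.0356 and 0.0650 with DOX. The first DOX library was higher than the other 2, and the log2 fold change was -2.65 (adjusted p = 1.97e-05, SE 0.42). It held 3 ISRE matches. Inside IFIT3, the region at +3.9 kb (chr10:89330801-89333000) had 1.05, 1.17 and 1.54 against 0.452, 0.353 and 0.339, with a log2 fold change of -1.72 (adjusted p = 2.97e-06, SE 0.24). This region and IFIT2 -5.8 kb also had peaks in vehicle libraries alone, and their tests are not read as support. The remaining regions that fell had log2 fold changes from -1.95 (IFIT5 -3.6 kb) to -0.74 (IFIT2 -23.8 kb). Of these, IFIT2 -23.8 kb and IFIT2 -18.2 kb alone had a peak in a DOX library. The IFIT5 -3.6 kb value rests on a DOX coverage sum of 4.27 over the 3 libraries, and its call was lost in 13 of 16 alternatives (range -3.16 to -1.06). The 6 regions that did not pass had log2 fold changes from -1.34 (IFIT3 +9.6 kb, adjusted p = 0.0590) to -0.83 (IFIT5 +11.8 kb, adjusted p = 0.0694).

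None of the 17 regions that fell in BT-549 turned direction under the alternative settings run for it (17, or 16 at IFIT5 -3.6 kb), and none of the 23 was called as rising under any setting. The number that fell was 10 of 23 with the trend of coverage with GC content removed, where 11.9% of all regions fell and 13.3% rose. It was 11 with loess scaling, where 14.2% of all fell and 13.8% rose, and 11 without vehicle replicate 1 or without vehicle replicate 3, where 12.3% and 13.2% of all fell. With the GC trend removed the IFIT2 promoter was not called (log2 fold change -0.41), and with the highest bin in place of the sum the IFIT1 promoter was not called (-0.31). The call held under all 17 settings for 8 regions, namely the promoters of IFIT3 and IFIT5, the 3 regions over transcript ends, IFIT2 -5.8 kb, IFIT3 +3.9 kb and IFIT5 +8.5 kb. Of these 8, the promoters alone had peaks in DOX libraries.

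Single 100-bp bins were also tested with the cutoffs of the study, which in BT-549 ask for a 2-fold change or more together with an adjusted p under 0.01. Of the 364 bins, 129 passed as lower and 0 as higher, against 2.87% and 2.07% of all bins. The region over the IFIT3 end held 40 of them and that over the IFIT2 end 38. The region over the IFIT1 end held 18, IFIT5 +8.5 kb 7, IFIT2 -5.8 kb 6 and IFIT3 +3.9 kb 5. All of these regions had peaks in vehicle libraries alone, which favours a fall. The IFIT3 promoter held 8, the IFIT5 promoter 4, IFIT2 -23.8 kb 2 and the IFIT2 promoter 1. With DESeq2, 43 of the 364 bins passed as lower and 0 as higher, against 0.656% and 1.02% of all bins. The DESeq2 bins were not counted by region. Neither count of lower bins is read as support.

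The peak calls of the single libraries were read beside the coverage. A region enters the table if at least 3 libraries have a peak there, so regions with peaks in the vehicle libraries alone were selected for high vehicle signal. All 23 BT-549 regions had a peak in each vehicle library, while the DOX libraries had a peak in 2, 5 and 5 of them. Peaks in vehicle libraries alone were found at 17 of 23 IFIT regions, of which 11 fell, and at 34.9% of all regions, of which 29.4% fell. The 6 IFIT regions outside this class had a peak in at least 1 DOX library. All 6 fell, against 11.9% of the 30121 regions of the table with peaks in both groups. Of the 6, the promoters of IFIT3 and IFIT5 alone had a peak in every library. The vehicle peaks were enough for entry at all 6, so this share is not free of that selection. Peaks covered 28.2%, 25.7% and 23.2% of the window in the vehicle libraries and 0.549%, 1.52% and 1.49% in the DOX libraries. The DOX libraries had fewer peaks everywhere, between 30450 and 39837, against 65204 to 93929. Per Mb of peaks in the genome, the window held 679 to 754 bp in the vehicle libraries and 42.1 to 124 bp in the DOX libraries. At the IFIT3 promoter the fold enrichment of the peak was 45.8, 47.3 and 39.0 with vehicle and 7.83, 7.25 and 6.72 with DOX.

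In DU-145 cells the cluster changed in both directions. Of the 23 regions, 12 rose and 2 fell, against 37.1% and 17.4% of all 79177 regions, and the table as a whole had a median log2 fold change of 0.24. The median over the IFIT regions was 0.63. In 11 regions every DOX library lay above every vehicle library, as in 40.1% of all regions, and in 1 below, as in 19.4%. The split between rising and falling regions depended on the scaling: it was 10 and 4 with TMM factors, 7 and 4 with loess, and 6 and 7 with the GC trend removed. Over all regions the shares higher and lower were 30.0% and 25.5%, 24.8% and 24.4%, and 24.7% and 27.3% in these settings. The sum over the window was 135 to 146 per 1000000 in the vehicle libraries and 177 to 183 in the DOX libraries, so the groups did not overlap (two-sided exact permutation p = 0.1). Of the 23 regions in this sum, 5 had peaks in DOX libraries alone and 1 in vehicle libraries alone. The test of the sum is not read as support.

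The rises in DU-145 were mainly away from the promoters, as are most of the IFIT regions. The intronic region at IFIT3 +24.3 kb (chr10:89351501-89353000) had 1.17, 1.29 and 1.19 with vehicle and 3.08, 2.70 and 2.42 with DOX. The groups lay far apart, with a log2 fold change of 1.16 (adjusted p = 5e-11, SE 0.11), and the BT-549 table has no region there. At IFIT1B -22.3 kb (chr10:89355501-89356000) the vehicle libraries had 0.110, 0.105 and 0.113 and the DOX libraries 0.868, 0.716 and 0.641. This region, with peaks in the 3 DOX libraries and in no vehicle library, rose by a log2 fold change of 2.71 (adjusted p = 6e-09, SE 0.32). At IFIT1B -4.6 kb (chr10:89373301-89373700) the values were 0.0654, 0.171 and 0.152 against 0.440, 0.676 and 0.487, with a log2 fold change of 1.96 (adjusted p = 2.77e-05, SE 0.37). These were 2 of 5 regions with peaks in DOX libraries alone, a class that held 10.7% of all regions and in which 97.2% rose. IFIT3 +9.7 kb (log2 fold change 0.76, adjusted p = 4.7e-04) and IFIT5 +17.7 kb (0.82, adjusted p = 0.00374) rose with a peak in every library. IFIT5 +11.9 kb (0.96) and IFIT2 -18.4 kb (1.29) rose with a peak in 2 and 1 vehicle libraries. IFIT2 -6.0 kb rose by 1.03. The regions that did not pass ran from -0.50 (IFIT3 +4.3 kb) to 0.65 (IFIT2 +0.8 kb).

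Between IFIT1B and IFIT1, the region at IFIT1 -6.3 kb (chr10:89386101-89386500) had 0.0171, 0.0282 and 0 with vehicle and 0.699, 0.590 and 0.494 with DOX. It was near 0 in each vehicle library, with a coverage sum of 3.66 over the 3, and no vehicle library had a peak there. The fitted log2 fold change of 4.80 ranged from 1.67 to 5.73 over the settings, and no fold is given. The region at IFIT5 +13.3 kb (chr10:89427701-89428100), past IFIT5, had 0.0909, 0.0319 and 0 against 0.693, 0.452 and 0.370. Its fitted log2 fold change of 3.58 ranged from 1.37 to 4.50. Both regions had peaks in the 3 DOX libraries alone and so entered the table through the group where they are high, as did IFIT1B -22.3 kb, IFIT1B -4.6 kb and IFIT2 -6.0 kb. Their direction follows from that entry, and their tests are not read as support. Of the 11 bins that passed the study's cutoffs as higher in DU-145 (2-fold or more, adjusted p under 1e-05), 4 lay at IFIT3 +24.3 kb, 4 at IFIT1 -6.3 kb, 2 at IFIT1B -22.3 kb and 1 at IFIT5 +13.3 kb. Among all bins, 5.0% passed as higher and 1.59% as lower.

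The region at IFIT5 +6.7 kb (chr10:89421001-89421500), past the end of the canonical IFIT5 transcript and in an exon of a longer one, went the other way in DU-145. It had 1.18, 0.793 and 0.689 with vehicle and 0.176, 0.271 and 0.297 with DOX. The highest DOX library was below the lowest vehicle library, with a log2 fold change of -1.82 (adjusted p = 8.76e-07, SE 0.28), and the 2 bins that passed as lower in DU-145 lie in it. No DOX library had a peak there and all 3 vehicle libraries did. The region thus entered the table through the group where it is high, a class of 1937 regions of which 95.7% fell. Its direction follows from that entry, and its test is not read as support. The region, 5 bins long, holds 3 matches to the AP-1 sequence TGACTCA, searched on both strands. Of single 100-bp bins, 4.93% in the DU-145 table and 4.60% in the window hold a match. The share of regions with as many matches was not counted. The 3 matches are shown because this is the IFIT region with the largest fall in DU-145, as 29 bases of the plus strand with the match in capitals.
IFIT5 +6.7 kb, match 1, chr10:89421032-89421060: cccttatcaacTGACTCAaagtctctgaa
IFIT5 +6.7 kb, match 2, chr10:89421286-89421314: ggtacgctcccTGACTCAcaaaagctgag
IFIT5 +6.7 kb, match 3, chr10:89421476-89421504: cctttctagatTGAGTCAacgatgccgat

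The DU-145 promoters had small differences. The IFIT2 promoter (chr10:89301301-89302500) had 0.526, 0.552 and 0.437 with vehicle and 0.680, 0.718 and 0.824 with DOX. The groups did not overlap, with a log2 fold change of 0.54 (adjusted p = 0.0086, SE 0.17). The IFIT3 promoter (chr10:89327601-89328600) had 1.19, 1.26 and 1.32 against 1.43, 1.73 and 1.68, with a log2 fold change of 0.36 (adjusted p = 0.0227, SE 0.14). Both directions rest on the scaling, since with the GC trend removed the values were -0.05 and -0.25 (adjusted p = 0.840 and 0.117; over all alternatives the values ran from -0.05 to 0.61 and from -0.26 to 0.51). The IFIT1 promoter (chr10:89391901-89393500) had 0.644, 1.19 and 1.01 against 0.673, 0.886 and 0.774. Its groups overlapped, and it did not pass the test (log2 fold change -0.30, SE 0.16, adjusted p = 0.121). The IFIT5 promoter (chr10:89414001-89415700) had 2.23, 1.99 and 2.12 against 1.61, 1.54 and 2.12. It passed narrowly although DOX replicate 3 lay within the vehicle range, with a log2 fold change of -0.27 (adjusted p = 0.0386, SE 0.11), and 7 of 17 alternatives did not call it. Every DU-145 library had a peak at all 4 promoters.

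**Figure D2:**
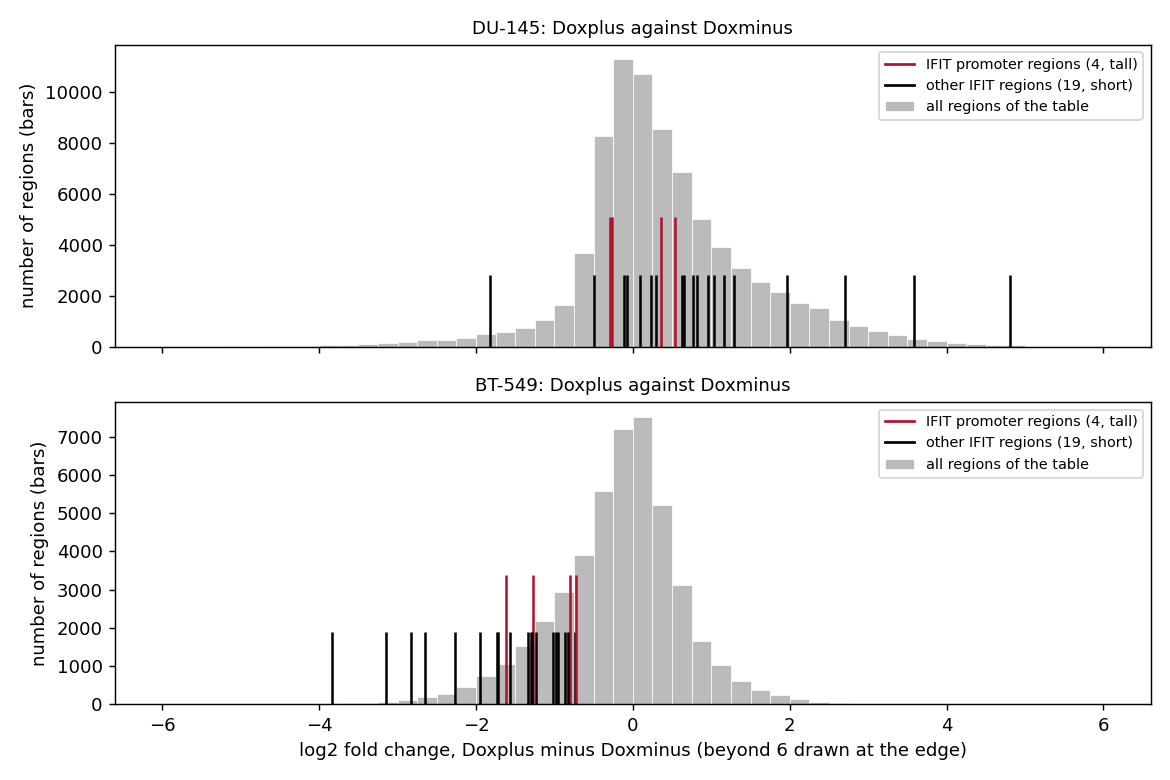
Number of regions (bars) by log2 fold change of DOX against vehicle for all regions of the DU-145 table (top) and the BT-549 table (bottom), with the IFIT regions as lines, the 4 promoters tall and red and the other 19 short and black. The 23 IFIT regions of BT-549 lie between -3.84 and -0.73, below the bulk of the table, and those of DU-145 lie between -1.82 and 4.80, across it.

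The neighbourhood of the window was read for comparison. In BT-549, 51 regions lay within 2 Mb of the window on either side, of which 17.6% fell and 5.88% rose, with a median log2 fold change of -0.27. Those values were near the 18.0% and the -0.10 of the whole table, and the window held 73.9% that fell. In DU-145, 39.8% of the 133 regions within 2 Mb rose, with a median of 0.47, against 52.2% of those in the window. At the edges of the window, the nearest regions outside were at -0.93 (adjusted p = 0.0148) on the left and -0.52 (adjusted p = 0.478) on the right in BT-549, and the first regions inside at -0.74 and -0.83. In DU-145 the nearest regions outside were at 3.23 and 1.60, and the first inside at -0.08 and 0.82.

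The lines were compared in vehicle cells over the 13 runs of bins in both tables, scaled by the sum over all shared bins. Coverage was lower in DU-145 at 11 runs and higher at 1, against 48.1% and 27.0% of all 32671 runs. The BT-549 regions of the window had a peak in every vehicle library. In DU-145, IFIT2 -6.0 kb had a peak in no vehicle library. IFIT2 -18.4 kb, IFIT2 +8.3 kb and IFIT1B -8.5 kb had one in 1 vehicle library, and IFIT5 +11.9 kb in 2. This entry favours a lower value in DU-145, and the count and the tests of these runs are not read as support. Line, culture and copy number cannot be told apart in this comparison. At the IFIT3 promoter run, DU-145 had 1.59, 1.70 and 1.79 and BT-549 had 6.87, 7.04 and 6.76. The lines did not overlap, with a log2 difference of -2.03 (adjusted p = 3.59e-17, SE 0.12). The largest difference was at IFIT2 +8.3 kb, the part of the region past the IFIT2 end that both tables hold. DU-145 had 0.407, 0.301 and 0.420 there and BT-549 6.76, 5.81 and 6.60. The log2 difference was -4.14 (adjusted p = 3.31e-18, SE 0.22). The IFIT2 promoter run differed by -1.17 (adjusted p = 3.74e-07, SE 0.18). The IFIT1 and IFIT5 promoter runs differed by -0.41 and -0.30 (adjusted p = 0.0245 and 0.0110), the first turning to 0.43 with the GC trend removed and the second to 0.20 when the highest bin was taken in place of the sum. The run that was higher in DU-145, IFIT3 +9.6 kb, had 1.43, 1.43 and 1.38 against 1.25, 0.718 and 0.817, with a log2 difference of 0.59 (adjusted p = 0.0274, SE 0.24).

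**Figure D3:**
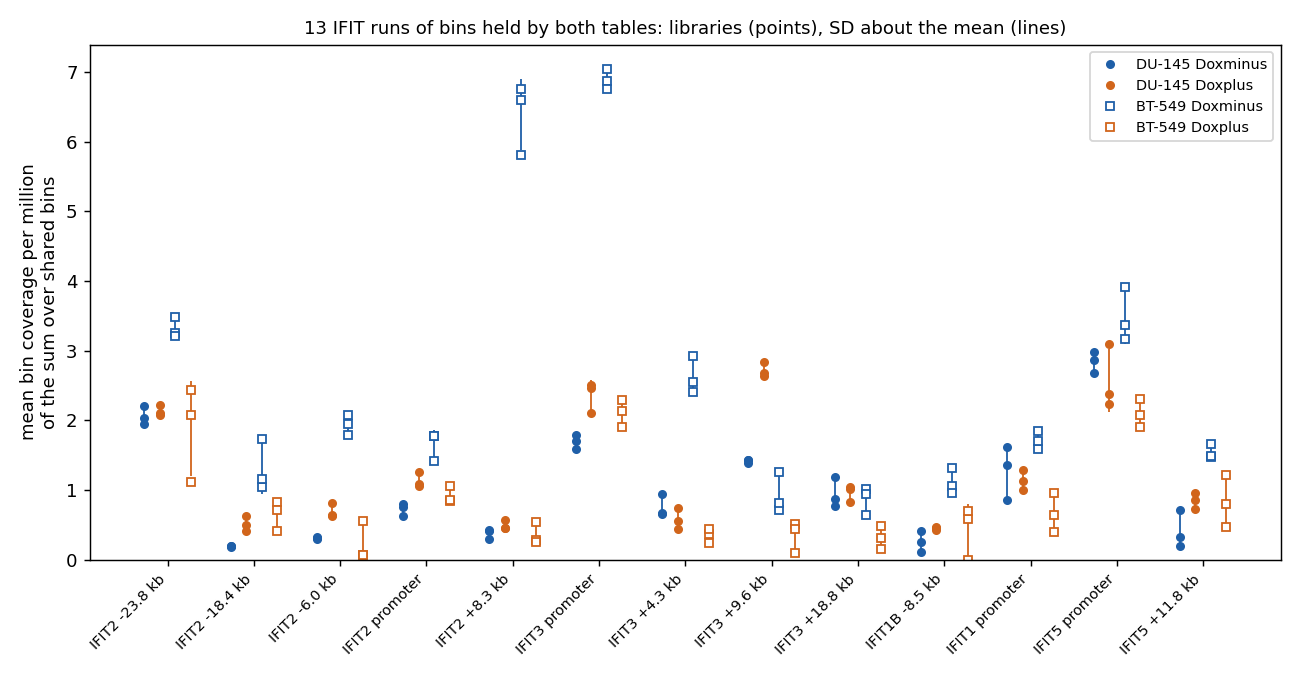
Mean bin coverage per 1000000 of the sum over shared bins (vertical axis) at the 13 IFIT runs held by both tables. Filled circles are DU-145 libraries, open squares BT-549 libraries, blue is vehicle (Doxminus), orange is DOX (Doxplus), and lines give the SD about the mean of 3. The BT-549 vehicle libraries at the IFIT3 promoter (6.76 to 7.04) and IFIT2 +8.3 kb (5.81 to 6.76) lie above all others, and the BT-549 DOX libraries are among those of DU-145 at the IFIT3 promoter.

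The DOX effect itself differed between the lines at all 13 runs. The interaction of line and DOX, the DU-145 log2 fold change minus that of BT-549, was above 0 and passed at 13 of 13 runs, against 27.3% of all runs above 0 and 11.3% below. In BT-549 the runs IFIT2 -6.0 kb, IFIT2 +8.3 kb and IFIT3 +4.3, +9.6 and +18.8 kb lie in regions with vehicle peaks alone. The same held at IFIT1B -8.5 kb and IFIT5 +11.8 kb. Entry through the group where they are high favours a value above 0, and the tests of these runs are not read as support. The interaction was 2.2 (adjusted p = 4.44e-11, SE 0.21) at the IFIT3 promoter, 1.49 (adjusted p = 9.43e-05, SE 0.30) at the IFIT2 promoter, 1.15 (adjusted p = 0.00267, SE 0.31) at the IFIT1 promoter and 0.59 (adjusted p = 0.0135, SE 0.19) at the IFIT5 promoter. At the IFIT3 promoter the BT-549 DOX libraries had 1.90, 2.29 and 2.13 (mean 2.11), and the DU-145 DOX libraries 2.11, 2.51 and 2.46 (mean 2.36). These ranges overlapped. With the GC trend removed, 7 of the 13 runs passed above 0 and 0 below, against 15.2% and 16.7% of all runs.

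Other genes of the interferon pathway were read at their promoters, as regions within 1 kb of a start. Among 33 interferon-induced genes, 31 had a promoter region in BT-549, of which 27 fell and 0 rose, against 8.78% and 16.7% of all promoter regions. The median log2 fold change was -1.34. The count that fell was 27 under TMM, RLE and loess scaling and 28 with the GC trend removed. RSAD2 and CMPK2 share 1 region, as do PARP9 and DTX3L. OAS2, which makes the activator of RNase L, had 2.43, 2.25 and 2.66 with vehicle and 0.498, 0.555 and 0.743 with DOX, with a log2 fold change of -2.01 (adjusted p = 1.77e-10, SE 0.16). MX1, a dynamin-like antiviral GTPase, had 3.42, 3.78 and 3.89 against 0.708, 0.875 and 0.996, with a log2 fold change of -2.09 (adjusted p = 4.53e-10, SE 0.17). IFI44L fell by 2.46 (adjusted p = 2.03e-09, SE 0.22) and IFI44 by 1.65 (adjusted p = 7.03e-08, SE 0.18) on the log2 scale. In each of these 4 the groups did not overlap. In which libraries the promoter regions of the list had peaks was not counted, and entry through vehicle peaks alone favours a fall. Of the 10 signalling genes, 3 fell in BT-549 (IRF9, IRF1 and IRF7), and IFNAR1 rose (log2 fold change 0.61, adjusted p = 0.00392). The numbers were 1 and 1 with TMM or RLE factors.

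In DU-145 most promoters of the signalling genes fell. All 10 had a promoter region, of which 7 fell and 0 rose, against 31.6% and 15.5% of all promoter regions, with 6 to 9 falling over the scalings. IRF9, a DNA-binding partner of STAT2, had 1.96, 1.77 and 1.8 with vehicle and 0.801, 0.941 and 0.999 with DOX. The groups lay apart, with a log2 fold change of -1.0 (adjusted p = 9.13e-08, SE 0.13). IFNAR2, a chain of the receptor, fell by 0.49 (adjusted p = 1.6e-06, SE 0.08) and STAT2 by 0.44 (adjusted p = 1.14e-05, SE 0.08). Of the induced genes 26 had a region, of which 12 fell and 2 rose (OAS3 and ZBP1). The number that fell was 11 to 19 over the scalings. HERC6, a HECT-domain ligase, had the smallest adjusted p of them (log2 fold change -0.61, SE 0.10, adjusted p = 4.03e-06).

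The promoters most like that of IFIT3 were sought among 11175 promoter runs held by both tables, by Pearson's correlation of log2 coverage over the 12 libraries. VLDLR (r = 0.966), RSAD2 (r = 0.964) and SAMD9 (r = 0.963) ranked first. The 12 libraries fall into 4 groups and share depth and line, so these values describe the pattern and carry no test. IFIT3 had a mean of 1.69 with vehicle and 2.36 with DOX in DU-145, and 6.89 and 2.11 in BT-549. The VLDLR means were 2.99 and 3.39 in DU-145 and 4.94 and 3.18 in BT-549, a smaller fold between the BT-549 groups than at IFIT3. RSAD2 had 0.689 and 0.866 in DU-145 and 3.94 and 0.572 in BT-549. This RSAD2 run (chr2:6877301-6878200) is not the region shared with CMPK2 that the list of induced genes used. SAMD9 had 0.770 and 0.994 in DU-145 and 2.58 and 0.783 in BT-549.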

How the data were processed

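The authors aligned each replicate to GRCh38 (bwa-mem), took out duplicates (Picard) and called peaks in each library with MACS2 (2.2.7.1 per the labels, q-value cutoff 0.05). Regions found in at least 3 replicates were cut into 100-bp bins. The deposited bin values are estimated counts, that is fragment coverage averaged across a bin, not scaled for depth. The deposited peak lists give a fold enrichment with its p-value and q-value as -log10.

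Bins were summed per region. The design had assumed whole counts, so the sums were rounded. Regions with a total of at least 10 were tested with edgeR 4.0.16 (quasi-likelihood, robust, R 4.3.3), with the column sum as library size, no covariates and Benjamini-Hochberg adjustment over all regions of the table, at 0.05. A line was fitted on its 6 libraries, the lines in vehicle cells on 6, and the interaction on 12. The standard error is the log2 fold change divided by the root of F. Bins were tested alike. The members and the lists of genes were chosen with earlier results of these data known. Member regions are described singly or by the range of their values, with the 4 listed pathway genes of smallest adjusted p per line. The 3 promoters most like that of IFIT3 are described too. GENCODE v44 gave genes and the hg38 sequence the motifs. Alternatives were TMM and RLE factors, loess, removal of a GC trend, other filters, DESeq2 1.42.0, limma-trend (limma 3.58.1), the highest bin, replicate blocks and leaving out libraries. The fits were tested on simulated data.

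Replicates were distinct, with at most 1.65% of bins equal in any pair. At least 95.2% of the 50-base words of each IFIT region occur once in the window, so sequence repeated within the window is a small part of them. Copies elsewhere in the genome were not searched. Coverage sums cover accessible bins and are not fragment numbers, and intervals for counting error were not computed from them.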

Additional observations from a re-analysis of the deposited data

Results flagged for a closer look

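The DOX effect differed between DU-145 and BT-549 at the 13 runs of bins that both tables hold, by the interaction of line and DOX in edgeR. The interaction, in log2 units as DU-145 minus BT-549, was largest around IFIT2, with 4.58 past the IFIT2 end (IFIT2 +8.3 kb) and 4.22 at IFIT2 -6.0 kb. It was 2.40 at IFIT2 -18.4 kb, 1.49 at the IFIT2 promoter and 0.85 at IFIT2 -23.8 kb. Around IFIT3 it was 2.50 at +4.3 kb, 2.34 at +9.6 kb, 2.2 at the promoter and 1.46 at +18.8 kb. It was 1.95 at IFIT1B -8.5 kb, 1.15 at the IFIT1 promoter, 0.59 at the IFIT5 promoter and 1.96 at IFIT5 +11.8 kb. The adjusted p ran from 4.44e-11 at the IFIT3 promoter to 0.0407 at IFIT3 +18.8 kb. Of all 32671 runs, 27.3% passed above 0. The BT-549 DOX libraries are the shallowest, and their part in these values was not tested. Under all 24 alternatives the call held at 5 runs, namely IFIT2 -6.0 kb, IFIT2 +8.3 kb, the IFIT3 promoter, IFIT3 +4.3 kb and IFIT3 +9.6 kb. Of these 5, the IFIT3 promoter alone had peaks in every library of both lines. The others lie in BT-549 regions with peaks in vehicle libraries alone, which favours a value above 0. At IFIT2 -6.0 kb the DU-145 peaks were in DOX libraries alone as well, so its direction follows from its entry into both tables. The tests of these runs, the IFIT3 promoter left out, are not read as support.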

How the results depend on the processing

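The replicate numbers were not used to pair the samples. The correlations of same-numbered deviations lay between -0.0282 and 0.0640, and those of other pairs between -0.0675 and 0.0456. These values show no pairing and cannot exclude one. The replicate block left 16 of 23 IFIT regions lower in BT-549, against 16.4% of all regions. In BT-549 the number that fell was 17 as reported, 11 with loess, 10 with the GC trend removed, 9 with the replicate block and the GC trend removed, and 11 to 15 when a library was left out. Of all regions, 18.0%, 14.2%, 11.9%, 10.9% and 12.3% to 17.0% fell in these settings. In DU-145 the 12 that rose became 7, 6 and 6 with loess, with the GC trend removed and with the block as well. Of all regions, 24.8%, 24.7% and 24.4% rose there. The 2 that fell became 4 with TMM, RLE or loess, where 25.5%, 27.7% and 24.4% of all fell. They became 7 with the GC trend removed, with or without the block (27.3% of all in both). With DESeq2 or the highest bin 1 fell, against 16.2% and 19.3% of all. Leaving out a library gave 12 to 14 calls, 10 to 13 higher and 1 to 2 lower (1 without vehicle replicate 3 or DOX replicate 2). Of all regions, 33.5% to 35.9% were higher and 15.5% to 16.3% lower in those fits. With the replicate block and the GC trend removed, the IFIT2 and IFIT3 promoters of DU-145 were at -0.05 and -0.26, and without the block at -0.05 and -0.25.

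Between the lines, the 11 lower and 1 higher became 7 and 3 with the GC trend removed, with or without the block, where without it 34.3% of all runs were lower and 35.4% higher. The number higher was 2 with loess or the highest bin and 0 with DESeq2 or whole-table sums, and leaving out a library gave 10 to 12 calls, 0 to 1 of them higher and 10 to 11 lower. With the GC trend removed, without and with the block, IFIT2 -23.8 kb turned to 0.21 and 0.20, the IFIT1 promoter to 0.43 and 0.39, and the interaction at IFIT2 -23.8 kb to -0.12 and -0.11. The 13 interactions became 7 in both GC settings (15.2% and 15.1% of all runs above 0, without and with the block). They became 11 to 13 when a library was left out (24.8% to 26.7% of all). The causes of these moves were not tested.

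Bins passing the study's cutoffs in DU-145 (11 higher, 2 lower) became 59 and 9, 68 in all, without a fold cutoff (22.8% and 11.8% of all bins), 5 and 3, 8 in all, with the GC trend removed (2.66% and 3.01%), 4 and 3, 7 in all, with the block as well (2.65% and 2.95%), and 5 and 0 with DESeq2 (1.33% and 0.630%). Leaving out a library gave 6 to 12 bins, 5 to 11 higher (5 without vehicle replicate 2) and 0 to 2 lower (0 without vehicle replicate 1, DOX replicate 1 or DOX replicate 2). Of all bins, 2.24% to 3.93% were higher and 1.02% to 1.48% lower in those fits. The 129 lower bins of BT-549 became 43 with DESeq2 and 76 to 119 when a library was left out, lowest without DOX replicate 3 or 2 (76 and 79). Of all bins, 0.656% were lower with DESeq2 and 1.35% to 2.57% when a library was left out. The BT-549 DOX libraries are shallow. In them 46.7% to 57.7% of the window's bins had a value under 1, against 8.84% to 16.9% of all bins. In the vehicle libraries the share was 0 in the window. The part of depth in the window's share was not tested.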

Other observations

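The regions over transcript ends were looked at further, a choice made after their values had been seen. In the BT-549 table, 104 regions of at least 3 kb held the end of a canonical protein-coding transcript and no start, and 70.2% of them fell with DOX while 6.73% rose, with a median log2 fold change of -0.83. Of all 1147 regions of at least 3 kb, 23.5% fell and 28.6% rose, and of the 318 of them with neither an end nor a start, 37.1% fell and 26.7% rose. In DU-145 there were 62 such end regions, of which 12.9% fell and 53.2% rose. There, 37.0% of all regions of at least 3 kb fell and 22.2% rose, and of those with neither an end nor a start 23.9% fell and 41.1% rose. Among the interferon-induced genes of the list, the BT-549 table had a region over the end of MX1 (chr21:41457601-41462800, log2 fold change -3.44, adjusted p = 9.27e-17), which ran 3.59 kb past it. It also had one over the end of IFI6 (chr1:27662701-27668900, -2.48, adjusted p = 3.78e-14), OAS3 (-2.26, adjusted p = 4.55e-09), OAS2 (-2.07, adjusted p = 9.63e-09), OASL (-2.50, adjusted p = 1.02e-08) and RSAD2 (-2.80, adjusted p = 5.58e-08). The other listed genes with a region over the end were XAF1 (-1.44), IFI27 (-1.36), DTX3L (-1.08) and ISG15 (-0.56), which also passed, and IFITM3 (-0.41, adjusted p = 0.095), which did not. The ISG15 and IFITM3 regions also hold the start. In which libraries the end regions outside the window had peaks was not counted in either line. Entry through vehicle peaks alone favours a fall, so the BT-549 tests and shares of end regions are not read as support. In DU-145, of the listed and IFIT genes, the end of ISG15 alone lay in a region, which also held its start (-0.12, adjusted p = 0.455).

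Peaks of single libraries that lie in the window but in no region of the table numbered 11, 14 and 6 in the BT-549 vehicle libraries and 0, 1 and 0 in the BT-549 DOX libraries, and from 1 to 2 in each DU-145 library.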
